A study of Mus musculus with 18 samples.

Results

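A set of 7 receptors that sense lipids and metabolites or restrain triglyceride breakdown in fat cells was followed through the RNA-seq counts of BAT-LgT brown adipocytes. These were Ffar4, Gpr35, Ffar2, Hcar1, Hcar2, Adora1 and Ptger3, taken as the 7 rows of the count table that carry these symbols, out of 20295 genes in all. The members were chosen by name with earlier results of these data in view, and the measured values known to have entered are those of Ffar4 and Gpr35, which had been named for lower counts with lipase inhibitors alone. For that contrast, and for these 2 genes also in every comparison with Lipase Inh. + Vehicle and in the interactions, values are therefore given as a description with no test. The Vehicle libraries of that contrast are shared by the comparisons with Vehicle. How far measured values entered the choice of the other 5 members is not recorded. Of the 7 members, 6 passed the filter on low counts and Ptger3 did not.

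BAT-LgT cells are mouse brown preadipocytes that carry the SV40 large T antigen and were differentiated in culture. All groups were harvested on day 7 of differentiation after a treatment of 3 h. Cells without inhibitor received DMSO (Vehicle), 100 nM of the pan-β-adrenergic agonist isoproterenol (ISO), or SR-3420, a small molecule that displaces the ATGL co-activator ABHD5 from perilipin. The labels give 10 µM for SR-3420, the text of the study gives another dose, and which of them applied to these libraries is not settled here. The remaining groups got the same 3 treatments after 1 h with inhibitors of the lipases ATGL and HSL together, and carry the prefix Lipase Inh. before the name of the treatment, as in Lipase Inh. + ISO. Each of the 6 groups has 3 replicates, described in the methods of the study as independent experiments. A single immortalised line in culture stands for brown fat in these data, and nothing was measured in animals.

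Most of these receptors signal through inhibitory G proteins. When such a receptor is occupied, adenylyl cyclase is held back, cAMP falls, protein kinase A is less active and the lipases release less fatty acid, the opposite of what a β-adrenergic agonist does. Their ligands are often products of the fat cell itself: long-chain fatty acids, lactate, ketone bodies, adenosine and prostaglandins. Such receptors are known in adipose tissue as brakes on lipolysis, and nicotinic acid has long been used as a drug that acts on one of them.

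The upstream windows of the receptors with the widest ranges of level are shown to compare the DNA next to them. Each window is the 250 bases directly before the annotated gene start, read 5′ to 3′ on the gene's own strand from the mm9 genome, with CG dinucleotides in capitals. The windows lie at chr19:38171319-38171568 (plus strand) for Ffar4, at chr1:94869446-94869695 (plus strand) for Gpr35 and at chr7:31608795-31609044 (minus strand) for Ffar2.
Ffar4: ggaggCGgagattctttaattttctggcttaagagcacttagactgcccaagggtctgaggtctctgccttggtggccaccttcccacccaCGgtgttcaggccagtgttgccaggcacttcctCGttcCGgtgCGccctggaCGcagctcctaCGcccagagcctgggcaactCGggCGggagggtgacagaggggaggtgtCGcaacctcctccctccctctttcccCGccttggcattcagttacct
Gpr35: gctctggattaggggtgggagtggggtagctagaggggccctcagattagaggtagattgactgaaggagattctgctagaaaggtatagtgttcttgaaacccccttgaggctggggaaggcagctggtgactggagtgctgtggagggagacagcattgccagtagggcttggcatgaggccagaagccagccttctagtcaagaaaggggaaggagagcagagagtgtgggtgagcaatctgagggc
Ffar2: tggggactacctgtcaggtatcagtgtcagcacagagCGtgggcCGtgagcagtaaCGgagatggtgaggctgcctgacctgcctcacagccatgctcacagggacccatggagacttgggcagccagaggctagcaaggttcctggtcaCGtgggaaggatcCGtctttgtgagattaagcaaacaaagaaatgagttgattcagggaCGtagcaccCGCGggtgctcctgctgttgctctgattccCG
The Ffar4 window holds 11 CG dinucleotides, the Ffar2 window 9 and the Gpr35 window 0. Among the same windows of all 20275 gene starts that could be read, the median was 11 and 6.46% had none, so the Gpr35 window belongs to a minority of starts without CG. The windows of Hcar1 and Hcar2 hold 6 each, that of Adora1 holds 19 and that of Ptger3 holds 22. On either strand, none of the 7 member windows holds the cAMP response element TGACGTCA, its core TGACG, which is contained in it, the direct repeat of AGGTCA with 1 base between the copies that PPAR and RXR bind, a looser form of it with AGGNCA, which covers the first, or the C/EBP-ATF composite TGATGNAA. These letters occur in 2.14%, 21.2%, 0.0543%, 0.345% and 2.76% of all 20275 windows, in the same order. Sites elsewhere, such as distal enhancers, were not searched.

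Library totals ran from 10310447 to 21205032 counts in 17 libraries, and Lipase Inh. + SR-3420 replicate 2 held 4263755, of which 18.3% came from Lars2. Levels are CPM, the counts of a gene scaled to a common library size, after TMM scaling, given as mean ± SD of 3 replicates. Log2 fold changes with SE and adjusted p-values come from edgeR's quasi-likelihood test with Benjamini-Hochberg adjustment over 12156 genes, and "rose" and "fell" stand for an adjusted p of at most 0.05. Scaling by total counts in place of TMM shifts the median gene by -0.31 in ISO against Vehicle, by -0.16 in SR-3420 against Vehicle and by -0.23 in Lipase Inh. + ISO against Lipase Inh. + Vehicle (log2), so small changes below hold relative to the median gene. All 10 brown adipocyte markers were detected, with Ucp1 from 1.39 to 789 CPM, and their sum ran from 9712 to 10527 CPM in Lipase Inh. + Vehicle and from 13659 to 14706 CPM in ISO. The 6 preadipocyte and fibroblast markers summed to between 31.5 and 55.98 CPM, and the 10 immune markers to between 5.68 and 15.9 CPM. Of the immune markers, Cd14 (up to 10.9 CPM) and Cd68 (up to 5.88 CPM) were detected in every library. The other 8 immune markers stayed under 1 CPM, with Ptprc at 0 in all libraries. Each of 5 endothelial markers also stayed under 1 CPM. The part of these marker sums in the values below was not tested, and in bulk RNA fewer cells of a type and less RNA per cell cannot be told apart.

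With ISO, 5 of the 6 tested receptors passed the threshold: Ffar4, Gpr35 and Hcar2 rose, and Hcar1 and Adora1 fell. The background was high, since 51.8% of all tested genes passed in this contrast, 26.8% upward and 25.0% downward. Ffar4, Gpr35 and Hcar2 were past a 2-fold increase, as were 5.03% of tested genes. Ffar4 and Gpr35 were chosen on values that use these Vehicle libraries. The share of all genes is therefore no yardstick for this set, and nothing is read from it. SR-3420 moved all 6 past the threshold, 4 up and 2 down, against 51.4% of all tested genes (26.0% up and 25.4% down). Both comparisons use the same Vehicle libraries. The median log2 fold change of the 6 receptors was 0.58 with ISO and 0.34 with SR-3420, and that of all genes -0.021 and -0.017.

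After the lipase inhibitors, ISO moved all 4 receptors tested against Lipase Inh. + Vehicle, Hcar2 up and Ffar2, Hcar1 and Adora1 down, beside 57.7% of all genes (29.4% up and 28.3% down). The widest values in opposite directions were 3.52 ± 0.10 SE for Ffar4, untested, and -2.13 ± 0.16 SE for Ffar2 on the log2 scale. SR-3420 after inhibitors moved 3 of 4 tested receptors, Ffar2, Hcar2 and Adora1, all upward, where 4.34% of all genes passed, 2.99% up and 1.36% down. That count of 3 depended on the settings: it was 1 with total-count scaling, 2 with only the groups compared in the fit, 2 with libraries thinned to the smallest total and 2 when any one of 7 of the 18 libraries was dropped. Ffar2 was among the calls in each of these. The baseline of these counts, Lipase Inh. + Vehicle, entered the choice of members, so the share of all genes is no yardstick for them. Against Vehicle, that baseline had log2 values of -0.64 for Ffar2, -0.48 for Adora1 and -0.38 for Hcar2. For Hcar1, which SR-3420 did not move after inhibitors, the value was -0.10. Between the 2 stimuli without inhibitors, 4 of 6 receptors differed, against 29.7% of all genes. Set against the same stimulus without inhibitors, all 6 receptors differed with ISO (42.6% of all genes) and 4 of 6 with SR-3420 (39.8%). The interaction of inhibitors with the stimulus was tested for 4 receptors and passed in 4 of 4 for ISO (31.4% of all genes) and 4 of 4 for SR-3420 (27.3%). Each interaction contains the contrast of Lipase Inh. + Vehicle with Vehicle, which entered the choice of members. These counts are therefore no independent support.

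**Figure D1:**
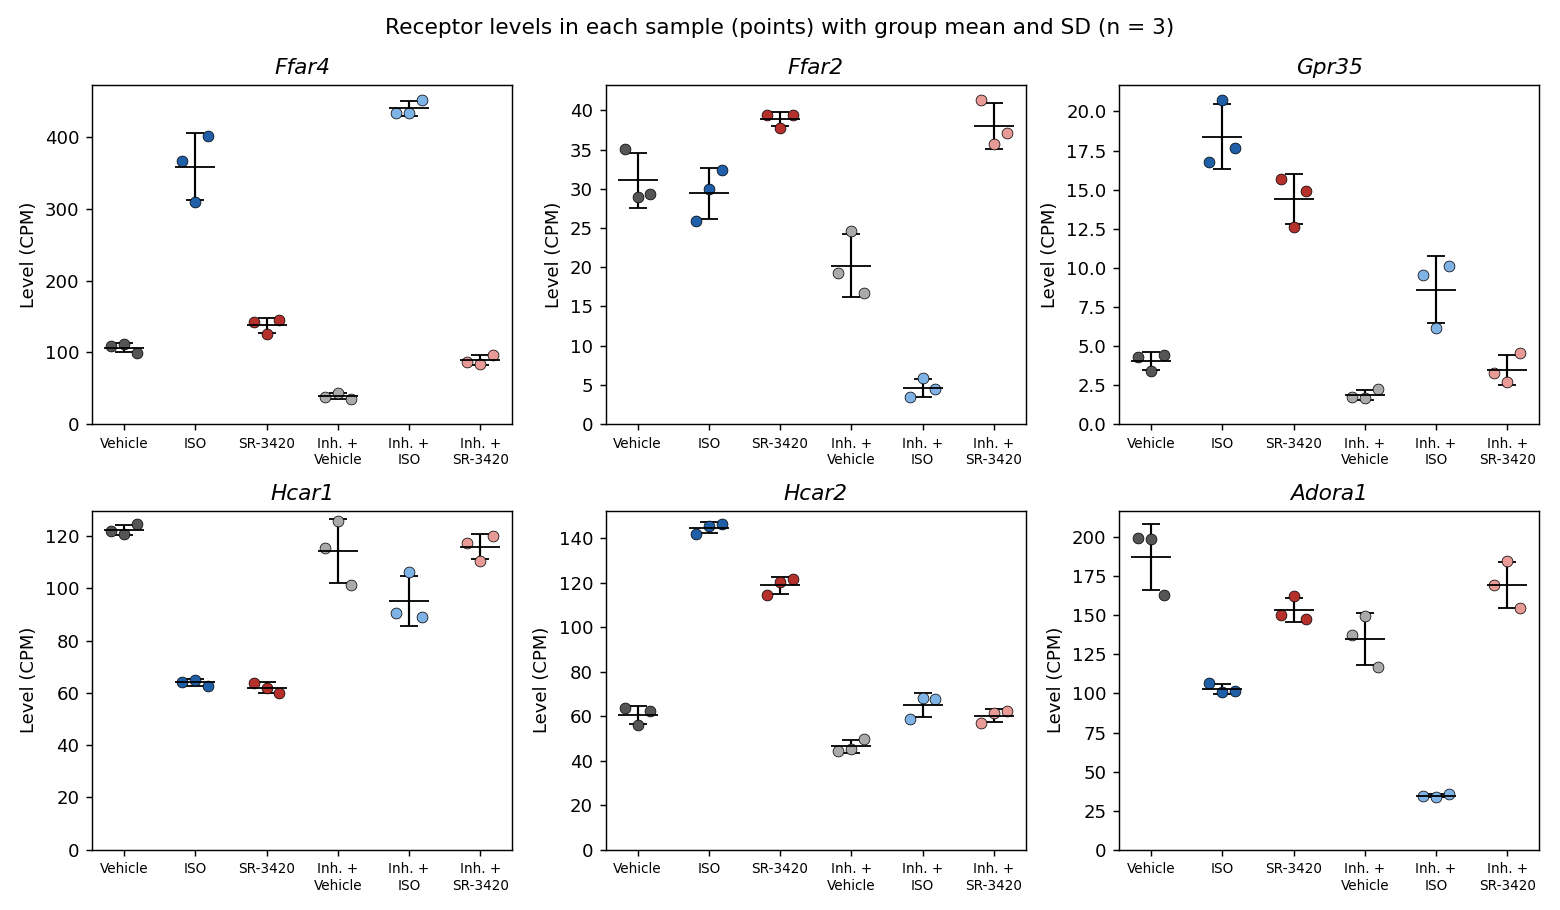
Level of the 6 tested receptors in every library, in CPM on a linear axis from 0 that differs between panels, by group, with points for the 3 replicates and bars for the mean and SD. Inh. stands for Lipase Inh. on the axes. Ffar4 is highest in Lipase Inh. + ISO, where its replicates lie between 434 and 452 CPM, the same group in which Ffar2 (3.51 to 5.86 CPM) and Adora1 (33.9 to 35.7 CPM) are lowest.

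Ffar4, the receptor for long-chain fatty acids at chr19:38171569-38188753 (plus strand), had the largest log2 response to ISO after Gpr35 among the tested members. Without inhibitors its replicates 1 to 3 stood at 108, 112 and 99.4 CPM with Vehicle, 367, 309 and 401 CPM with ISO and 142, 126 and 145 CPM with SR-3420. After inhibitors they stood at 38.2, 43.01 and 34.6 CPM with Vehicle, 434, 434 and 452 CPM with ISO and 86.9, 83.7 and 96.6 CPM with SR-3420. No pair of the 6 groups overlapped: the order from lowest to highest was Lipase Inh. + Vehicle, Lipase Inh. + SR-3420, Vehicle, SR-3420, ISO and Lipase Inh. + ISO. ISO raised Ffar4 3.37-fold over Vehicle (log2 value 1.75 ± 0.091 SE, adjusted p = 9.85e-13). The Vehicle libraries also entered the choice of Ffar4, so its p-values against Vehicle are no independent support. With the lipases inhibited the level with ISO was 11.4-fold that of the matched Vehicle (3.52 ± 0.10 SE, with no test since that Vehicle group entered the choice of the gene). The starting levels differed, since the mean was 107 ± 6.45 CPM in Vehicle and 38.6 ± 4.24 CPM in Lipase Inh. + Vehicle. The end levels were nearer to each other, 359 ± 46.5 CPM with ISO and 440.1 ± 10.4 CPM with Lipase Inh. + ISO, and differed by 0.29 ± 0.087 SE, adjusted p = 0.00922. Without ISO replicate 2 that last difference was 0.20 with an adjusted p of 0.0730. The 2 log2 responses to ISO differed by 1.76 ± 0.13 SE, which is given with no test.

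SR-3420 gave a much smaller increase of Ffar4, 0.37 ± 0.090 SE, adjusted p = 0.00179, which was 0.21 with an adjusted p of 0.111 under total-count scaling. This comparison too uses the Vehicle libraries that entered the choice of Ffar4. ISO stood above SR-3420 by 1.38 ± 0.090 SE, adjusted p = 2.08e-10. After inhibitors, the log2 value of SR-3420 against the lower starting level was 1.22 ± 0.10 SE, with no test, and the mean of 89.1 ± 6.75 CPM was below the 138 ± 10.4 CPM of SR-3420 alone (-0.62 ± 0.093 SE, adjusted p = 1.74e-05). The SR-3420 responses with and without inhibitors differed by 0.85 ± 0.13 SE, again without a test.

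Ffar2, the receptor for acetate and other short-chain fatty acids at chr7:31603376-31608794 (minus strand), showed no detectable response to ISO alone and a large fall with ISO after inhibitors. Its replicates without inhibitors were at 35.1, 28.9 and 29.3 CPM with Vehicle, 25.95, 29.97 and 32.4 CPM with ISO and 39.4, 37.8 and 39.4 CPM with SR-3420, and the ISO range overlapped that of Vehicle. With inhibitors they were at 19.2, 24.6 and 16.8 CPM with Vehicle, 3.51, 5.86 and 4.46 CPM with ISO and 41.4, 35.7 and 37.1 CPM with SR-3420. The 3 Lipase Inh. + ISO libraries lay below all 15 others. For ISO against Vehicle the log2 fold change was -0.090 ± 0.13 SE, adjusted p = 0.589, with a 95% interval from -0.37 to 0.19. Total-count scaling gave -0.40 with an adjusted p of 0.0182 for the same comparison. For Lipase Inh. + ISO against Lipase Inh. + Vehicle, Ffar2 fell 4.37-fold (-2.13 ± 0.16 SE, adjusted p = 3.16e-10), and against ISO alone it was 6.38-fold lower (-2.67 ± 0.16 SE, adjusted p = 1.32e-11). The interaction, which is the ISO response with inhibitors minus that without, was -2.04 ± 0.21 SE, adjusted p = 1.53e-07.

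Ffar2 with SR-3420 went the other way. The increase over Vehicle was 0.32 ± 0.13 SE, adjusted p = 0.0405, and its call was lost under total-count scaling (adjusted p = 0.348), in thinned libraries (0.278), and without Vehicle replicate 2 (0.136) or 3 (0.116) or any of SR-3420 replicates 1 (0.0895), 2 (0.0586) and 3 (0.0931). ISO against SR-3420 gave -0.41 ± 0.13 SE, adjusted p = 0.0202, a call lost without ISO replicate 1 (0.115) or SR-3420 replicate 1 (0.0554) or 3 (0.0613). After inhibitors SR-3420 raised Ffar2 by 0.93 ± 0.13 SE, adjusted p = 0.000162, from 20.2 ± 4.03 to 38.1 ± 2.95 CPM. That end level overlapped the 38.9 ± 0.913 CPM of SR-3420 alone, and the 2 groups differed by -0.022 ± 0.13 SE, adjusted p = 0.909, with a 95% interval from -0.30 to 0.26. The SR-3420 interaction was 0.61 ± 0.18 SE, adjusted p = 0.0170, and missed the threshold without Vehicle replicate 1 (0.0575), Lipase Inh. + SR-3420 replicate 1 (0.0542) or Lipase Inh. + Vehicle replicate 3 (0.0615). Most of this interaction lies in the contrast of Lipase Inh. + Vehicle with Vehicle (-0.64), which entered the choice of members.

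Gpr35, at chr1:94869696-94882968 (plus strand), is an orphan-type receptor for which kynurenic acid and lysophospholipids have been put forward as ligands. Its mean CPM per kb was the lowest of the 6 tested members in 5 of the 6 groups, while in Lipase Inh. + ISO it stood at 2.15 ± 0.536 beside 2.01 ± 0.515 for Ffar2, within the spread, and it had 10 to 284 counts per library. Replicates without inhibitors stood at 4.30, 3.40 and 4.41 CPM with Vehicle, 16.8, 20.7 and 17.6 CPM with ISO and 15.7, 12.6 and 14.9 CPM with SR-3420. With inhibitors they stood at 1.75, 1.65 and 2.25 CPM with Vehicle, 9.54, 6.13 and 10.1 CPM with ISO and 3.24, 2.66 and 4.52 CPM with SR-3420. Both stimuli alone lifted every library above every Vehicle library, the lowest group was Lipase Inh. + Vehicle, and the ranges of Lipase Inh. + SR-3420 and Vehicle overlapped. Gpr35 rose 4.54-fold with ISO (2.18 ± 0.19 SE, adjusted p = 2.33e-09) and 3.56-fold with SR-3420 (1.83 ± 0.19 SE, adjusted p = 4.73e-08). It was the member with the largest log2 response to each of them. The Vehicle libraries entered the choice of Gpr35, so its p-values against Vehicle are no independent support.

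ISO and SR-3420 differed for Gpr35 by 0.35 ± 0.16 SE, adjusted p = 0.102, which missed the threshold, and by 0.37 with an adjusted p of 0.0428 when the replicate number was a block. Gpr35 was lower with inhibitors than without them for both stimuli, with a log2 difference of -1.08 ± 0.17 SE, adjusted p = 2.02e-05 for ISO and of -1.94 ± 0.20 SE, adjusted p = 1.10e-07 for SR-3420. On the log2 scale the ISO response was close in size with and without inhibitors, 2.18 (untested) and 2.18, though in thinned libraries the value with inhibitors was 2.50, and the starting level was lower too, with 1.88 ± 0.324 CPM against 4.04 ± 0.554 CPM. The SR-3420 response went from 1.83 to 0.96 ± 0.25 SE, a difference of -0.87 ± 0.32 SE, and neither the value with inhibitors nor the difference was tested. Without Lipase Inh. + SR-3420 replicate 3 the value with inhibitors was 0.68.

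**Figure D2:**
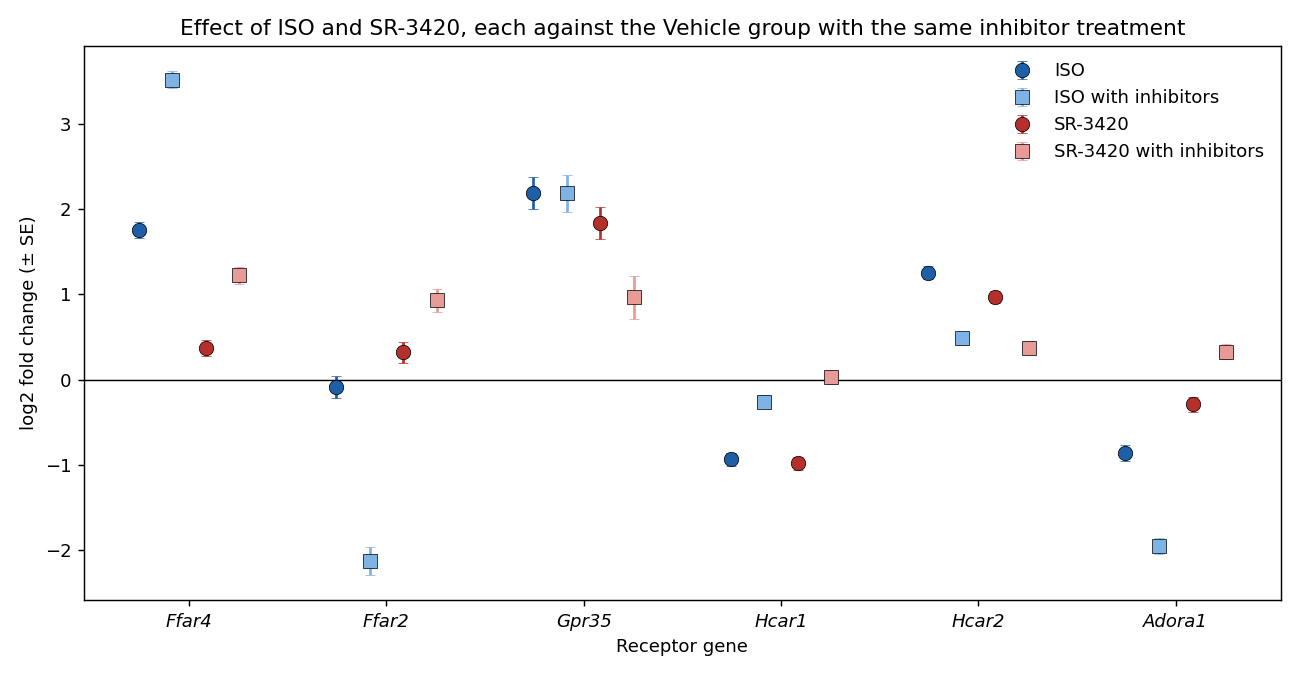
Log2 fold changes of the 6 tested receptors by comparison, with SE bars and a line at 0, from the fit over all 18 libraries. With ISO, Ffar4 goes from 1.75 without inhibitors to 3.52 with them, while Ffar2 goes from -0.090 to -2.13.

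Hcar1 and Hcar2 are neighbouring single-exon genes on the minus strand of chromosome 5 (chr5:124326745-124330029 and chr5:124313579-124315525, 11219 bases apart) that moved in opposite directions. Hcar1 is the lactate receptor and Hcar2 the receptor for β-hydroxybutyrate and nicotinic acid, and both couple to inhibitory G proteins. The Hcar1 replicates without inhibitors stood at 122, 121 and 125 CPM with Vehicle, 64.3, 65.1 and 62.5 CPM with ISO and 63.9, 62.03 and 59.8 CPM with SR-3420. With inhibitors they stood at 115, 126 and 101 CPM with Vehicle, 90.4, 106 and 89.2 CPM with ISO and 117, 111 and 120.0 CPM with SR-3420. Libraries with ISO or SR-3420 alone formed a low set of at most 65.1 CPM, and all other libraries had at least 89.2 CPM. Hcar1 fell with ISO (-0.93 ± 0.079 SE, adjusted p = 2.08e-09) and with SR-3420 (-0.98 ± 0.078 SE, adjusted p = 1.30e-09). No difference between the 2 stimuli was detected (0.049 ± 0.080 SE, adjusted p = 0.687, 95% interval -0.13 to 0.22), and the sign of this difference turned to -0.10 under total-count scaling.

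Most of the Hcar1 decrease was absent after inhibitors. After inhibitors SR-3420 left Hcar1 at 116 ± 4.84 CPM beside 114 ± 12.2 CPM in the matched Vehicle (0.029 ± 0.078 SE, adjusted p = 0.901, 95% interval -0.14 to 0.20). ISO after inhibitors gave -0.26 ± 0.077 SE, adjusted p = 0.00608, with overlapping groups, and the call was lost without Lipase Inh. + Vehicle replicate 2 (0.0588). Against the same stimulus alone, Hcar1 was higher with inhibitors by 0.57 ± 0.079 SE, adjusted p = 4.29e-06 for ISO and by 0.91 ± 0.079 SE, adjusted p = 1.10e-08 for SR-3420. The interactions were 0.67 ± 0.11 SE, adjusted p = 5.94e-05 for ISO and 1.01 ± 0.11 SE, adjusted p = 7.72e-07 for SR-3420.

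Hcar2 gave the mirror image. Without inhibitors its replicates stood at 63.6, 56.1 and 62.2 CPM with Vehicle, 142, 146 and 147 CPM with ISO and 114, 120.3 and 122 CPM with SR-3420. With inhibitors they stood at 44.3, 45.3 and 49.6 CPM with Vehicle, 58.6, 68.3 and 67.9 CPM with ISO and 56.8, 61.6 and 62.3 CPM with SR-3420. Here the libraries with ISO or SR-3420 alone were the high set, with at least 114 CPM, and all other libraries had at most 68.3 CPM. Hcar2 rose 2.39-fold with ISO (1.25 ± 0.073 SE, adjusted p = 6.07e-12) and 1.96-fold with SR-3420 (0.97 ± 0.073 SE, adjusted p = 5.38e-10). ISO exceeded SR-3420 by 0.28 ± 0.071 SE, adjusted p = 0.00425, which was 0.14 with an adjusted p of 0.226 under total-count scaling.

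With lipases inhibited Hcar2 still rose, but by less: 0.48 ± 0.075 SE, adjusted p = 9.72e-06 for ISO and 0.37 ± 0.077 SE, adjusted p = 0.00551 for SR-3420. The SR-3420 call was lost under total-count scaling (0.116) and in thinned libraries (0.103). With inhibitors Hcar2 was lower than with the stimulus alone, for ISO by a log2 difference of -1.15 ± 0.073 SE, adjusted p = 2.67e-11 and for SR-3420 by one of -0.98 ± 0.075 SE, adjusted p = 1.65e-09. Both interactions were negative, -0.77 ± 0.10 SE, adjusted p = 6.31e-06 for ISO and -0.60 ± 0.11 SE, adjusted p = 0.000226 for SR-3420. The Vehicle, Lipase Inh. + SR-3420 and Lipase Inh. + ISO ranges overlapped.

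Adora1, the adenosine A1 receptor gene at chr1:136095792-136132034 (minus strand), was lowered by both stimuli and most of all by ISO after inhibitors. Its replicates without inhibitors stood at 199.7, 199 and 163 CPM with Vehicle, 107, 101 and 102 CPM with ISO and 150.0, 162 and 148 CPM with SR-3420. After inhibitors they stood at 138, 149.6 and 117 CPM with Vehicle, 34.4, 33.9 and 35.7 CPM with ISO and 169, 184 and 155 CPM with SR-3420. The Lipase Inh. + ISO libraries lay below all others, and those with ISO alone came next, also apart from the rest. Adora1 shares 2018 bases with Mybph on the opposite strand, and Mybph had 0 to 7 counts per library where Adora1 had 370 to 3160, whatever the use of strand in counting.

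ISO lowered Adora1 1.81-fold (-0.86 ± 0.090 SE, adjusted p = 5.19e-08) and, after inhibitors, 3.87-fold (-1.95 ± 0.10 SE, adjusted p = 2.07e-13). The difference between these responses was -1.09 ± 0.13 SE, adjusted p = 1.12e-06. Lipase Inh. + ISO stood 2.97-fold below ISO alone (-1.57 ± 0.10 SE, adjusted p = 1.69e-11). The decrease with SR-3420 was smaller, -0.29 ± 0.088 SE, adjusted p = 0.00886, and missed the threshold without Vehicle replicate 1 (0.0525) or 2 (0.0505). ISO against SR-3420 gave -0.57 ± 0.089 SE, adjusted p = 5.48e-05.

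After inhibitors the SR-3420 response of Adora1 had the opposite sign, 0.33 ± 0.090 SE, adjusted p = 0.0386, and the SR-3420 interaction was 0.62 ± 0.13 SE, adjusted p = 0.000886. The increase itself was a weak call. It was lost with total-count scaling (0.247) and with only the groups compared (0.115). It was also lost when single libraries of the comparison were left out, namely Lipase Inh. + Vehicle replicate 1 (0.0978) or 3 (0.201) or Lipase Inh. + SR-3420 replicate 1 (0.0908) or 2 (0.165). Leaving out ISO replicate 1 (0.0540), SR-3420 replicate 1 (0.0507) or Lipase Inh. + ISO replicate 1 (0.0545) also took its adjusted p above the threshold, with the log2 value at 0.33 in each. The levels with SR-3420 with and without inhibitors overlapped, and differed by 0.14 ± 0.089 SE, adjusted p = 0.232, with a 95% interval from -0.057 to 0.33. Most of the SR-3420 interaction of Adora1 thus lies in the contrast of Lipase Inh. + Vehicle with Vehicle (-0.48), which entered the choice of members.

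Ptger3, the prostaglandin E2 receptor of the EP3 type at chr3:157229856-157307722 (plus strand), was close to undetected. It had 1 count in Lipase Inh. + Vehicle replicate 1 and 1 in SR-3420 replicate 2, and 0 in the other 16 libraries. A count of 0 allows up to 3 counts, which is 0.141 to 0.704 CPM depending on the library, covering counting error only. No comparison of its levels could be made at this depth.

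With inhibitors alone, the values describe a lower level of 5 of the 6 tested receptors. Log2 fold changes of Lipase Inh. + Vehicle against Vehicle were -1.47 ± 0.10 SE for Ffar4 and -1.07 ± 0.24 SE for Gpr35, the 2 genes known from this contrast when the set was made. They were -0.64 ± 0.13 SE for Ffar2, -0.48 ± 0.088 SE for Adora1, -0.38 ± 0.075 SE for Hcar2 and -0.10 ± 0.076 SE for Hcar1. The replicates of the 2 groups overlapped for Hcar1 and for no other tested member. Over all tested genes the groups did not overlap in 15.4%, and 0.913% passed the threshold in this contrast, from which nothing is read here since it entered the choice of members.

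**Figure D3:**
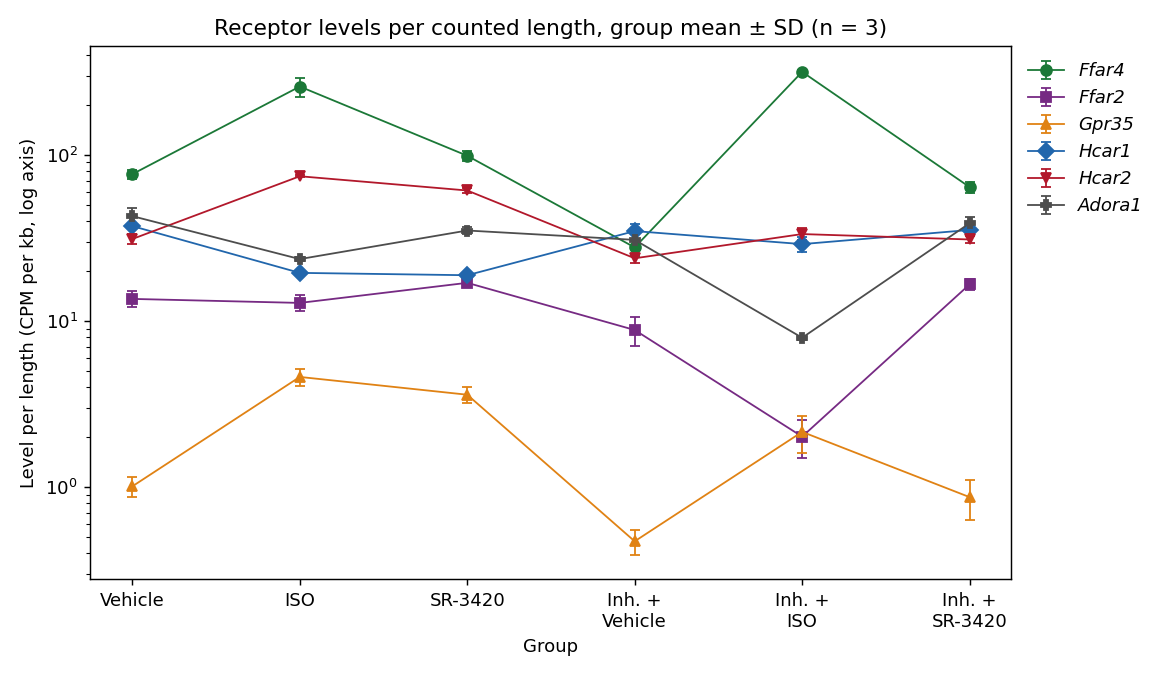
Mean level of the 6 tested receptors per kb of counted length (CPM per kb, log axis) in the 6 groups, with SD over 3 replicates. The points of a gene are joined only to guide the eye. Ffar4 goes from 27.7 CPM per kb in Lipase Inh. + Vehicle to 316 in Lipase Inh. + ISO, and Gpr35 is the lowest in all groups except Lipase Inh. + ISO, where its mean and that of Ffar2 lie within their SD.

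Levels of different genes were compared per kb of the length over which reads were counted. In Vehicle, Ffar4 stood at 76.5 CPM per kb, Adora1 at 42.8, Hcar1 at 37.2, Hcar2 at 31.1, Ffar2 at 13.6 and Gpr35 at 1.01. Ffar4 was thus at percentile 93.2 of all tested genes and Gpr35 at percentile 11.2. In Lipase Inh. + Vehicle the lead passed to Hcar1 with 34.8 CPM per kb, followed by Adora1 with 30.8 and Ffar4 with 27.7. Of the summed per-kb level of these 6 receptors, Ffar4 made up 37.8 ± 1.24% (SD, n = 3) in Vehicle, 65.5 ± 3.09% with ISO, 42.1 ± 2.16% with SR-3420, 21.9 ± 0.489% in Lipase Inh. + Vehicle, 34.3 ± 1.91% in Lipase Inh. + SR-3420 and 80.9 ± 1.07% in Lipase Inh. + ISO. The share of Hcar2 was highest with SR-3420 alone, at 26.1 ± 1.09%, and lowest in Lipase Inh. + ISO, at 8.54 ± 0.557%. Adora1 went from 21.1 ± 1.54% in Vehicle to 2.03 ± 0.0450% in Lipase Inh. + ISO. A higher Ffar4 level lowers every other share by construction.

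The tested genes whose log2 CPM followed each receptor most closely over the 18 libraries were listed by Pearson's r, as a description that rests mainly on the 6 group means. For Ffar4 these were Pde3b (0.988), Kdm3a (0.964) and Egln1 (0.963). Pde3b encodes a cAMP phosphodiesterase through which insulin restrains lipolysis, and Kdm3a and Egln1 encode oxygen-dependent dioxygenases. Log2 fold changes of Pde3b were 0.85 with ISO, 0.33 with SR-3420 and 1.46 with ISO after inhibitors. Closest to Gpr35 were Bhlhe40 (0.974), Rbm7 (0.960) and Ptgs1 (0.958), and to Ffar2 Aco1 (0.980), 1600014C10Rik (0.968) and Pitpnm2 (0.965). Aco1, which encodes cytosolic aconitase, had a log2 fold change of 0.027 with ISO and of -0.99 with ISO after inhibitors. For Hcar1 they were Hoxa3 (0.961), Bloc1s3 (0.959) and Gypc (0.956), and for Hcar2 Rab3ip (0.978), Maff (0.974) and Ccrn4l (0.969). Ccrn4l had log2 fold changes of 3.07 with ISO and 0.81 with ISO after inhibitors. Adora1 was matched by Ano1 (0.984), Pygb (0.980) and Lrig1 (0.977), of which Ano1, a calcium-activated chloride channel gene, had -1.06 with ISO and -2.49 with ISO after inhibitors.

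Among 26 other receptors for lipids, metabolites and antilipolytic hormones, 11 passed the filter on low counts. With ISO 2 rose and 2 fell, with SR-3420 3 rose and 3 fell, with ISO after inhibitors 4 rose and 2 fell, and with SR-3420 after inhibitors 0 rose and 1 fell (edgeR, and also 0 and 1 at an unadjusted p under 0.05 and by DESeq2). Their median log2 fold changes were -0.085, 0.13, 0.030 and -0.17, where all genes had -0.021, -0.017, -0.011 and 0.0025. The counts of this list and of the 3 lists below stand beside the following shares of all tested genes. With ISO 26.8% rose and 25.0% fell, and with SR-3420 26.0% rose and 25.4% fell. After inhibitors 29.4% rose and 28.3% fell with ISO, and 2.99% rose and 1.36% fell with SR-3420. S1pr1, a sphingosine 1-phosphate receptor, went from 8.16 ± 1.03 to 17.05 ± 0.822 CPM with ISO (1.07 ± 0.13 SE, adjusted p = 6.55e-07) and from 7.15 ± 0.802 to 21.04 ± 1.66 CPM with ISO after inhibitors (1.56 ± 0.13 SE, adjusted p = 1.25e-09). Adora2b, a stimulatory adenosine receptor, was at 1.03 ± 0.483 CPM in Vehicle and 2.18 ± 0.720 CPM with ISO (1.08 ± 0.37 SE, adjusted p = 0.0177). Sucnr1, the succinate receptor, fell with ISO from 1.49 ± 0.613 to 0.395 ± 0.174 CPM (-1.82 ± 0.41 SE, adjusted p = 0.000848). Ptger1, another prostaglandin E2 receptor, had log2 fold changes of -0.13 ± 0.10 SE, adjusted p = 0.290 with ISO and -0.31 ± 0.10 SE, adjusted p = 0.0153 with SR-3420. S1pr3 and Lpar6, for sphingosine 1-phosphate and lysophosphatidic acid, were among the most abundant of the list, with ISO log2 fold changes of 0.23 ± 0.14 SE, adjusted p = 0.195 and -0.76 ± 0.16 SE, adjusted p = 0.000471. Their SR-3420 log2 fold changes were 0.48 ± 0.14 SE, adjusted p = 0.00717 for S1pr3 and -1.10 ± 0.16 SE, adjusted p = 8.25e-06 for Lpar6.

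Of 21 G protein subunits 19 were tested, and 8 rose and 3 fell with ISO (median 0.043), 4 rose and 4 fell with SR-3420 (0.039), 8 rose and 5 fell with ISO after inhibitors (0.23), and 0 moved with SR-3420 after inhibitors (-0.052). For this last count by edgeR, 1 was higher and 1 lower at an unadjusted p under 0.05, and DESeq2 gave 0. The most abundant were Gnas, the stimulatory α subunit, at 394 ± 35.8 CPM in Vehicle, Gnb2 at 264 ± 26.7 CPM and Gng12 at 315 ± 23.5 CPM. Their ISO log2 fold changes were 0.10 ± 0.087 SE, adjusted p = 0.333 for Gnas, 0.0020 ± 0.13 SE, adjusted p = 0.991 for Gnb2 and 0.45 ± 0.066 SE, adjusted p = 7.10e-06 for Gng12. In the ISO comparison 0 of the 19 subunits passed a 2-fold change by edgeR or by DESeq2. By edgeR, 612 of all 12156 tested genes passed it upward and 495 downward. Of 19 regulators of G protein signalling, arrestins and receptor kinases 15 were tested, and with ISO 0 rose and 6 fell (median -0.24), with SR-3420 3 rose and 3 fell (-0.085), with ISO after inhibitors 1 rose and 8 fell (-0.30), and with SR-3420 after inhibitors 0 moved (-0.015). At an unadjusted p under 0.05, edgeR had 1 regulator higher with ISO, and 2 higher and 2 lower with SR-3420 after inhibitors, where DESeq2 gave 0 risen with ISO and 0 risen and 1 fallen with SR-3420 after inhibitors. Rgs2, which shortens G protein signals, fell from 501 ± 56.1 CPM to 179 ± 17.8 CPM with ISO (-1.49 ± 0.12 SE, adjusted p = 1.34e-09) and to 117 ± 16.8 CPM with SR-3420 (-2.10 ± 0.12 SE, adjusted p = 1.29e-11). Arrb1, a β-arrestin, had an ISO log2 fold change of 0.18 ± 0.078 SE, adjusted p = 0.0563. Ric8b, a chaperone of stimulatory α subunits, rose with SR-3420 by 0.89 ± 0.078 SE, adjusted p = 5.59e-09.

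**Figure D4:**
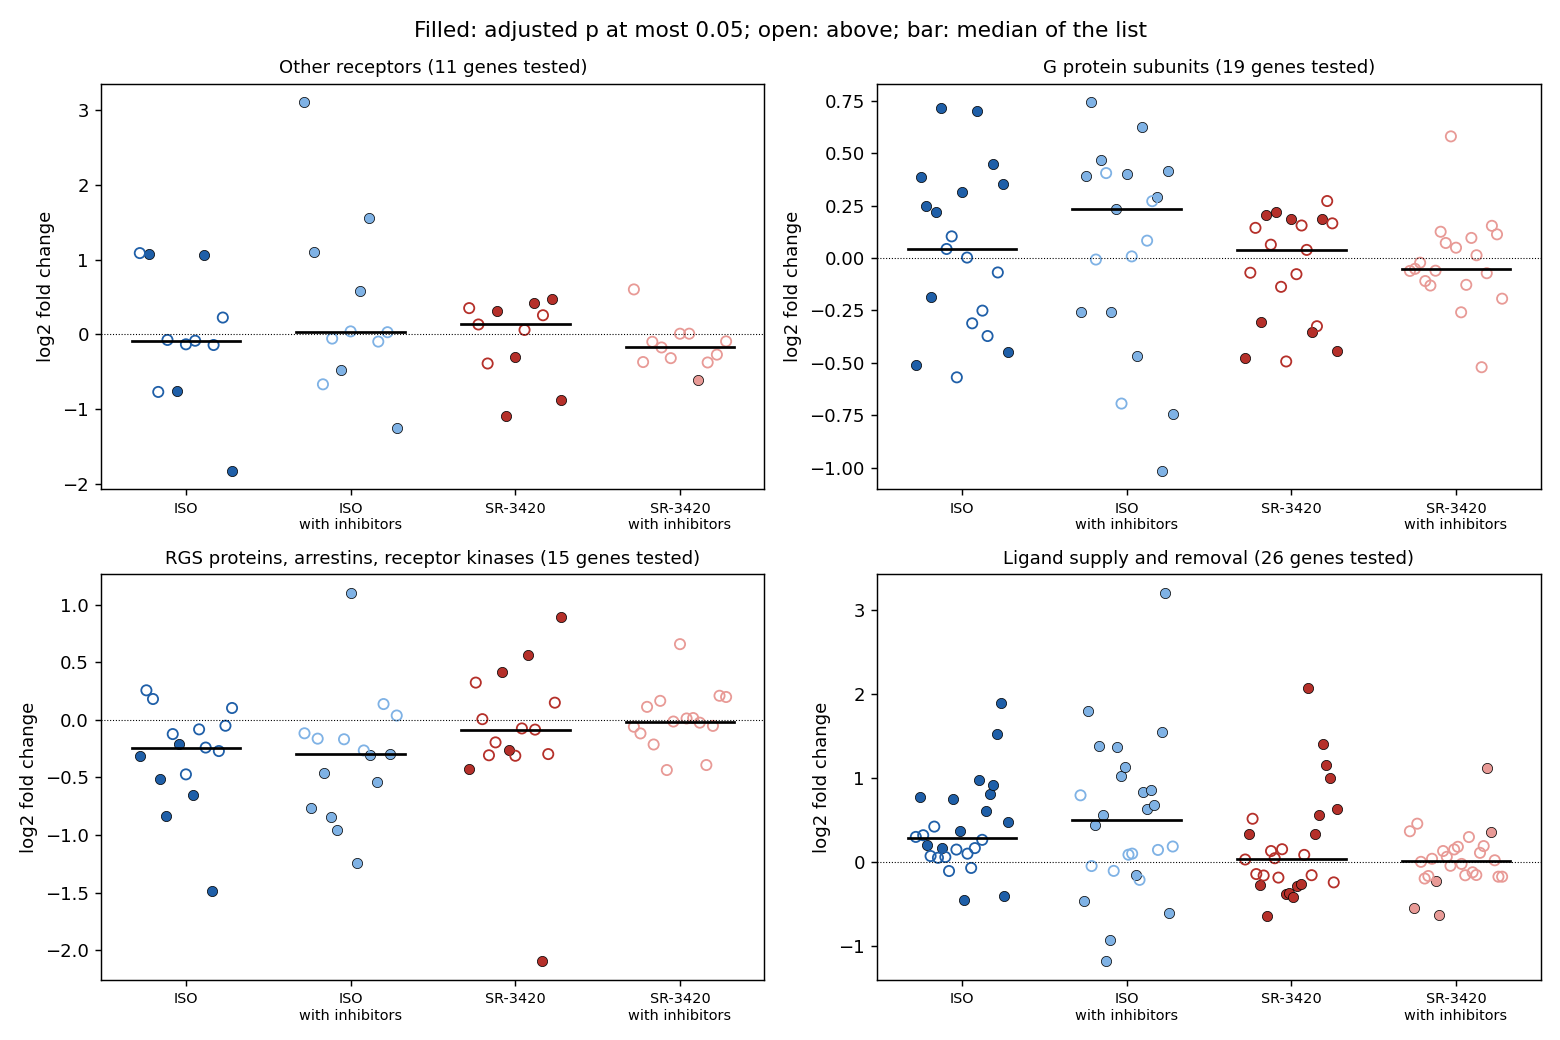
Log2 fold changes of the tested genes in 4 lists of related genes (other receptors, G protein subunits, regulators, and enzymes and transporters of the receptors' ligands) for ISO and SR-3420 with and without lipase inhibitors, on axes that differ between panels. Filled points passed an adjusted p of 0.05 and lines mark list medians, which lie between -0.30 and 0.49.

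The fourth list holds 33 enzymes and transporters that supply or remove the receptors' ligands, of which 26 were tested. With ISO 12 rose and 2 fell (median 0.28), with SR-3420 8 rose and 7 fell (0.033), with ISO after inhibitors 13 rose and 5 fell (0.49), and with SR-3420 after inhibitors 2 rose and 3 fell (0.0068). Genes of lactate handling come first. Ldha, which makes lactate from pyruvate, went from 863 ± 98.96 to 1449 ± 52.2 CPM with ISO (0.75 ± 0.092 SE, adjusted p = 6.11e-07) and from 634 ± 15.8 to 1631 ± 127 CPM with ISO after inhibitors (1.36 ± 0.093 SE, adjusted p = 5.18e-11). Slc16a3, a lactate exporter, rose with ISO by 1.89 ± 0.11 SE, adjusted p = 9.59e-12 and after inhibitors by 3.20 ± 0.12 SE, adjusted p = 3.06e-15, with an interaction of 1.31 ± 0.17 SE, adjusted p = 2.53e-06. Its starting levels differed, with 12.5 ± 0.705 CPM in Vehicle and 6.79 ± 0.850 CPM in Lipase Inh. + Vehicle (-0.89 ± 0.13 SE, adjusted p = 0.000447). The end levels were 46.3 ± 5.43 CPM with ISO and 61.8 ± 5.60 CPM with Lipase Inh. + ISO (0.42 ± 0.10 SE, adjusted p = 0.00198). Most of the Slc16a3 interaction thus lies in the starting levels. Slc16a1, a monocarboxylate transporter, rose by 1.51 ± 0.10 SE, adjusted p = 2.67e-11 with ISO and by 1.15 ± 0.10 SE, adjusted p = 2.86e-09 with SR-3420, and their partner Bsg had 0.067 ± 0.085 SE, adjusted p = 0.533 with ISO.

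For prostaglandin E2, the ligand of the near-absent Ptger3, Ptgs2 had log2 fold changes of 0.91 ± 0.17 SE, adjusted p = 8.76e-05 with ISO and 1.40 ± 0.16 SE, adjusted p = 3.30e-07 with SR-3420. Ptges, the terminal synthase, was at 14.4 ± 1.09 CPM in Vehicle, 28.2 ± 11.3 CPM with ISO and 60.4 ± 11.8 CPM with SR-3420, a rise of 2.06 ± 0.19 SE, adjusted p = 1.75e-08 for the latter. Acss2, which activates acetate, the ligand of Ffar2, had an ISO interaction of -1.23 ± 0.13 SE, adjusted p = 2.57e-07. It rose with ISO (0.77 ± 0.094 SE, adjusted p = 5.21e-07) and fell with ISO after inhibitors (-0.46 ± 0.093 SE, adjusted p = 0.000205). Inhibitors alone raised the Acss2 baseline by 0.62 ± 0.093 SE, adjusted p = 0.000516, which is part of that interaction. Ada, which degrades adenosine, the ligand of Adora1, had an ISO log2 fold change of 0.31 ± 0.31 SE, adjusted p = 0.413 and one of 1.80 ± 0.30 SE, adjusted p = 2.59e-05 after inhibitors. Lpl, which frees fatty acids from lipoproteins, was the most abundant of the list at 10620.2 ± 1306 CPM in Vehicle and rose from 10729.8 ± 779.8 to 23338 ± 1726 CPM with ISO after inhibitors (1.12 ± 0.11 SE, adjusted p = 1.26e-08). Fads1, a desaturase of polyunsaturated fatty acids, fell in the same comparison (-1.19 ± 0.063 SE, adjusted p = 6.65e-13) and had an interaction of -1.35 ± 0.088 SE, adjusted p = 1.46e-10.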

How the data were processed

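RNA was sequenced from 18 samples of BAT-LgT brown adipocytes, and samples were grouped by their titles. The authors aligned reads to mm9 with STAR 2.4.2a (per the submitters' processing notes), used HOMER, and obtained gene-level counts over RefSeq models from iRNA-seq, and the deposited table holds these whole-number counts, neither normalised nor filtered, with each gene's position and counted length. Whether strand was used in counting is not stated. The methods of the study describe a limit on reads that share both position and length, and its effect on a gene as densely covered as Ffar4, with up to 8918 counts over 1393 counted bases, was not tested. All 18 sample columns were used and 0 columns belonged to other samples.

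Counts were analysed with edgeR 4.0.16 in R 4.3.3. Genes were kept by filterByExpr (minimum count 10, minimum total 15), which left 12156, libraries were scaled by TMM, and a quasi-likelihood model with 1 mean per group over all 18 samples was fitted. Benjamini-Hochberg adjustment ran over all genes tested. On counts simulated for ISO against Vehicle, with 200 genes changed 3-fold among 12074 tested, 199 were recovered and 1 other gene was called. The simulation gave all genes the same dispersion, changed only genes above a set level and drew all others from Vehicle means. It therefore checks that the fit runs correctly and does not give the power in the real data. The study itself used DESeq2, which was an alternative here (DESeq2 1.42.0).

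The members and the lists of related genes and markers were chosen with earlier results of these data known, so their p-values are not independent support. Tests of Ffar4 and Gpr35 against Lipase Inh. + Vehicle, which had been planned, were left out because that group entered the choice of both genes. From each list the 3 genes with the highest mean CPM were named, with those changed at least 2-fold at an adjusted p of 0.05 in ISO against Vehicle, in SR-3420 against Vehicle or in the ISO interaction. Ric8a and Adgre1 were matched under the table's symbols Ric8 and Emr1 by accession. Genes most like a member were ranked on log2 CPM with a prior count of 2. Upstream windows were read from the mm9 genome. Counting floors are 3 counts, cover counting error only, and no molecular identifiers are described. Alternatives were RLE and total-count scaling, no filter, DESeq2, the replicate number as a block, only the groups compared, libraries thinned to 4263755 counts, each library left out and, chosen after seeing the data, Lars2 left out.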

Additional observations from a re-analysis of the deposited data

Results flagged for a closer look

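The response to ISO differed between cells with and without lipase inhibitors for each of the 4 receptors in which this was tested. As the log2 response with inhibitors minus that without, the difference was -2.04 for Ffar2, -1.09 for Adora1, -0.77 for Hcar2 and 0.67 for Hcar1, by edgeR's interaction test with adjusted p-values of 1.53e-07, 1.12e-06, 6.31e-06 and 5.94e-05. The background is wide, since 31.4% of all genes passed this interaction test. Each of these interactions contains the contrast of Lipase Inh. + Vehicle with Vehicle, which entered the choice of members. They are therefore no independent support.

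The response to SR-3420 differed as well, by 1.01 for Hcar1, 0.62 for Adora1, 0.61 for Ffar2 and -0.60 for Hcar2, with adjusted p-values of 7.72e-07, 0.000886, 0.0170 and 0.000226 from the same test, where 27.3% of all genes passed. The Ffar2 value missed the threshold in 3 of 18 fits that each left out a library, with adjusted p-values of up to 0.0615. Adora1 and Ffar2 had interactions of opposite sign for the 2 stimuli, and Hcar1 and Hcar2 had the same sign in both. Both interactions share the Vehicle and the Lipase Inh. + Vehicle libraries. The contrast between these 2 groups entered the choice of members and is part of each interaction. It was -0.64 for Ffar2 and -0.48 for Adora1. Their SR-3420 levels with and without inhibitors differed by -0.022 (edgeR adjusted p = 0.909) and 0.14 (0.232). The SR-3420 interactions of these 2 genes thus lie mostly in that contrast. None of the interactions, for either stimulus, is independent support.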

How the results depend on the processing

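For log2 fold changes called in the report, 1010 values over all alternatives kept direction and call, 30 lost the call and 0 reversed. For those not called, 146 kept their sign, 8 changed sign without a call and 2 gained a call. The untested values moved by less than their spread in 351 cases, by more in 5 and changed sign in 8, the latter all for the ISO interaction of Gpr35, which is near 0. The count of receptors past the threshold moved by over 1.5 times in 1 case, Lipase Inh. + SR-3420 against Lipase Inh. + Vehicle, from 3 to 1 with total-count scaling, and the cause was not tested. With each library left out in turn, the counts were 5 for ISO against Vehicle, 4 to 6 for SR-3420 against Vehicle, 3 to 4 for ISO against SR-3420, 3 to 4 for Lipase Inh. + ISO and 2 to 3 for Lipase Inh. + SR-3420 against Lipase Inh. + Vehicle, 5 to 6 for Lipase Inh. + ISO against ISO, 4 for Lipase Inh. + SR-3420 against SR-3420, 4 for the ISO interaction and 3 to 4 for the SR-3420 interaction. RLE scaling, DESeq2, no filter and leaving out Lars2 (chosen after seeing the data) changed no call of a receptor. Under total-count scaling 9 of 42 mean levels moved by more than 1 SD, and under RLE scaling 0 did.

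In the fit with a replicate block, receptors past the threshold numbered 5 with ISO, 6 with SR-3420, 5 in place of 4 for ISO against SR-3420, 4 with ISO and 3 with SR-3420 after inhibitors, 6 for Lipase Inh. + ISO against ISO, 4 for Lipase Inh. + SR-3420 against SR-3420, and 4 and 4 for the interactions. Same-numbered samples deviated together with a mean correlation of 0.110 over 45 pairs (-0.114 to 0.280, 28 of them over 0.1), and 14 of 18 samples correlated best with their own number. Pairs numbered 2 (0.0745 to 0.249) and 3 (0.114 to 0.280) were all positive, and pairs numbered 1 were mixed in sign (-0.114 to 0.166). With the block, 6853 in place of 6300 of all genes passed for ISO against Vehicle. Shared experiments are thus plausible, at least for numbers 2 and 3. The titles give only the number, and the main fit leaves it out. Depth limits Gpr35, with 10 to 284 counts per library, and Ptger3.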

Other observations

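Some list genes outside the naming rule, chosen after their values were seen, moved with ISO after lipase inhibitors. Adora2a, a stimulatory adenosine receptor and so the functional opposite of Adora1, was at 0.231 ± 0.184 CPM in Lipase Inh. + Vehicle and 2.07 ± 0.485 CPM in Lipase Inh. + ISO (log2 fold change 3.11 ± 0.50 SE, adjusted p = 1.46e-05 by edgeR's quasi-likelihood test), with 2.07 CPM as its highest group mean. Ccbl1, one of the enzymes that make kynurenic acid, a proposed ligand of Gpr35, went from 11.2 ± 0.553 to 28.8 ± 3.64 CPM (1.37 ± 0.20 SE, adjusted p = 3.93e-06). Ldhb, the other lactate dehydrogenase subunit, went from 47.5 ± 5.96 to 96.1 ± 6.13 CPM (1.02 ± 0.095 SE, adjusted p = 6.74e-09). Rgs12, a regulator of inhibitory α subunits, went down from 24.9 ± 1.23 to 10.3 ± 2.45 CPM (-1.24 ± 0.17 SE, adjusted p = 2.43e-06), and the γ subunit gene Gng2 from 6.24 ± 0.976 to 3.13 ± 0.538 CPM (-1.01 ± 0.18 SE, adjusted p = 5.32e-05).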
